A study of Mus musculus with 8 samples.

Results

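The genes Pou5f1 (which encodes Oct4), Sox2, Nanog, Sall4 and Utf1 were examined in 8 RNA-seq libraries of mouse embryonic stem cells (mESCs) and cells derived from them. They were chosen by symbol as core pluripotency factors and cofactors, and all 5 were among the 37620 genes counted. In mESCs the 3 transcription factors Oct4, Sox2 and Nanog occupy many of the same regulatory regions, including those of their own genes. Oct4, a POU-domain protein, and Sox2, an HMG-box protein, bind side by side on composite DNA sites, while Nanog is a homeodomain protein whose level differs between naïve and primed cells. Sall4 is a zinc-finger protein that binds Oct4 and Nanog and recruits the NuRD histone deacetylase complex, and Utf1 is a chromatin-associated cofactor found mostly in pluripotent and germ cells.

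The study asked how combinations of signals set the state of mESCs. Of the 8 libraries, 7 came from the R1 line. 5 of these were unsorted mESCs grown without feeder cells in medium containing serum, as 1 library in 2i on day 5, 1 in 2iJ on day 5 and 3 in 2iJ+B-A on days 2, 5 and 11. The 2i culture held 3 µM of the GSK3 inhibitor CHIR99021 and 1 µM of the MEK inhibitor PD0325901, which all mESC groups shared. In addition, the 2iJ culture had a JAK inhibitor (Jaki, 2.0 µM), which blocks the signal of LIF. The 2iJ+B-A culture was 2iJ to which BMP4 at 10 ng/ml had been added, with an inhibitor of the receptor kinase ALK5 (Alk5i, 10 µM). The study used this inhibitor to block Activin/Nodal signalling. The sorted library held GFP-positive cells taken on day 2 of 2iJ+B-A from another line, CDX2-GFP, in which GFP reports the trophectoderm (TE) factor Cdx2. The 2 mesoderm progenitor libraries came from R1 embryoid bodies in medium with BMP4, Activin A and Wnt3a, on day 3 and on day 4. By the study's methods the day 4 cells had also received IWP-2, an inhibitor of Wnt secretion. Day and treatment cannot be told apart there, and nothing in the labels says that libraries of a group were separate cultures at the same time point.

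Total gene counts were between 24532587 and 31453888 in the R1 libraries and 19810855 in the sorted library. The sorted library stood apart in alignment, with 29.7% of read pairs unmapped against 2.17% to 3.85% elsewhere, and its line, sort and library quality cannot be told apart from its group. The labels were checked against markers by summed counts-per-million (CPM), the share of the gene counts of a library. All 6 naïve mESC markers were above 3 counts in every library. Their sum was between 2621 and 4644 CPM in the mESC libraries, sorted cells included, against 462.8 and 96.0 CPM in mesoderm progenitors. Dppa5a was the largest part of it in every mESC library. Tdgf1 did not separate them, at 368.3 CPM in day 3 mesoderm progenitors, 118.2 to 193.1 CPM in 2iJ+B-A and 20.09 CPM in sorted cells. The other markers were each lower in both mesoderm progenitor libraries than in every mESC library. The 7 mesoderm progenitor markers summed to 1573 and 583.2 CPM in mesoderm progenitors on days 3 and 4. They summed to between 11.46 and 59.01 CPM in the mESC libraries, where up to 2 of them were at 3 counts or fewer. On day 4 most of the sum was Kdr (305.4 CPM) and Pdgfra (239.6 CPM). T and Mesp1 were 547.3 and 181.3 CPM on day 3 but 6.30 and 6.36 CPM on day 4.

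All 5 genes are protein coding, and coordinates follow the GENCODE vM1 annotation of NCBIM37. Pou5f1 (ENSMUSG00000024406) lies at chr17:35642982-35647721 on the plus strand. Sox2 (ENSMUSG00000074637) lies at chr3:34548927-34551383 on the plus strand, within the same-strand long noncoding gene Sox2ot, with which it shares 0 exon bases. Nanog (ENSMUSG00000012396) lies at chr6:122657507-122664651 on the plus strand. Sall4 (ENSMUSG00000027547) lies at chr2:168573832-168593443 on the minus strand, where 526 of its exon bases overlap the antisense noncoding gene Gm14261. Utf1 (ENSMUSG00000047751) lies at chr7:147129688-147131011 on the plus strand.

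Oct4 and Sox2 bind jointly to a composite site of an octamer element and a Sox element. Letters of this site, short of the whole octamer element, were searched within 5 kb on either side of each annotated gene start. The motif searched was GCATNACAATG, with N for any base, on both strands. It was present near 3 of the 5 genes, Sox2, Nanog and Utf1, and near 332 of 22367 protein-coding genes (1.48%) in windows of the same size. Within the motif, these 3 sites differ from each other only at the N. A pattern that fits known sites so closely gives no test of enrichment, so both shares are descriptions. The sites are shown from 5′ to 3′ on the strand of the motif, in NCBIM37, with the 11 bases of the motif in capitals and 9 bases on either side.
Nanog, chr6:122657426-122657454, plus strand: gcttcttttGCATTACAATGtccatggtg
Utf1, chr7:147131575-147131603, plus strand: acttcactaGCATAACAATGacggctcat
Sox2, chr3:34552962-34552990, minus strand: atcctatatGCATCACAATGgctgcccga
The Nanog site lay 67 bases before the annotated start of the gene, outside any annotated gene. The Utf1 site lay 1901 bases after the start, beyond the annotated end of the gene and in no other annotated gene. The Sox2 site lay 4049 bases after the start, in an intron of Sox2ot. For Pou5f1 and Sall4 these letters were not in the window, which does not show that a composite site with other letters is absent. A match of letters is a description of the sequence, and binding was not measured here.

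The counts of 2 of the genes could be touched by other copies of their sequence. Transcripts of Pou5f1 matched 5 other places in the genome, of which the closest, 385 bases in an intron of Rfwd2, was identical, and the longest, 1347 bases on chromosome 3, was 89.9% identical. Nanog had 3 such matches, with 1323 bases at 97.4% identity on chromosome X as the longest. None was found for Sox2, Sall4 or Utf1 with the same search. Read pairs that fit several places equally well were not counted.

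Pou5f1 was the most abundant of the 5 in every library but the day 4 mesoderm progenitors when levels were taken per kb of exon, and it was the one whose level differed least among the mESC cultures. Its level was 1043 CPM in 2i, 976.7 CPM in 2iJ and 865.5, 895.8 and 1075 CPM in 2iJ+B-A on days 2, 5 and 11. The sorted cells held 956.8 CPM. The values of 2i, 2iJ and sorted cells all lay within the range of 2iJ+B-A. Per kb of exon, Pou5f1 exceeded between 99.39% and 99.62% of the protein-coding genes in the unsorted mESC libraries. In mesoderm progenitors it was 701.3 CPM on day 3 and 35.37 CPM on day 4, both below every mESC library. The day 4 library kept Pou5f1 above 82.72% of the protein-coding genes. Counting without regard to strand gave between 49.35% and 64.36% as many Pou5f1 counts as counting on the strand of the gene, against 95.37% to 104.9% for the other 4 genes. Of the strand-assigned Pou5f1 counts, between 2.23% and 4.35% lay on the opposite strand. The cause of the lower unstranded count was not tested.

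Sox2 separated the groups more sharply. It was 669.9 CPM in 2i, 643.5 CPM in 2iJ and 596.6, 514.1 and 559.9 CPM in 2iJ+B-A on days 2, 5 and 11. It was 110.4 CPM in sorted cells, and 21.62 and 13.92 CPM in mesoderm progenitors on days 3 and 4. No 2 groups overlapped, but 2i, 2iJ and sorted cells were 1 library each. Mesoderm progenitors lay below 2iJ+B-A without overlap for 31.0% of genes tested, and 2iJ+B-A below both 2i cultures for 17.3%. The share of genes that separated all 5 groups was not computed. The step between 2iJ and the highest 2iJ+B-A library was 643.5 against 596.6 CPM, with 1 library behind the 2iJ value.

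Nanog followed the order 2i, 2iJ, 2iJ+B-A, sorted cells and mesoderm progenitors, also without overlap between groups. As for Sox2, 2i, 2iJ and sorted cells were 1 library each, and the share of genes separated in this way was not computed. It was 984.8 CPM in 2i, 772.9 CPM in 2iJ and 581.2, 506.2 and 537.5 CPM in 2iJ+B-A on days 2, 5 and 11. Sorted cells held 401.1 CPM, and the mesoderm progenitors 152.6 and 9.72 CPM on days 3 and 4. The 6 mESC libraries spanned 2.46-fold, sorted cells included, and the mesoderm progenitor libraries 15.7-fold.

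Sall4 had a different order. It was highest in 2iJ+B-A, at 377.8, 457.1 and 393.7 CPM on days 2, 5 and 11, above the 300.8 CPM of 2iJ and the 239.3 CPM of 2i. Sorted cells had 270.6 CPM. The mesoderm progenitors had 388.7 CPM on day 3, within the range of 2iJ+B-A, and 193.0 CPM on day 4, the lowest of the 8 libraries. The level of Sall4 thus spanned 193.0 to 457.1 CPM, a 2.37-fold span and the narrowest of the 5 genes.

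Per kb of exon, Utf1 was the least abundant of the 5 in every library but those of 2i and 2iJ, where Sall4 was lower. It was 61.14 CPM in 2i and 73.79 CPM in 2iJ, and lower in all 2iJ+B-A libraries, at 17.28, 41.46 and 36.29 CPM on days 2, 5 and 11. Sorted cells held 32.20 CPM, within the range of 2iJ+B-A. Mesoderm progenitors held 7.98 CPM on day 3 and 2.58 CPM on day 4, or 251 and 80 counts.

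**Figure D1:**
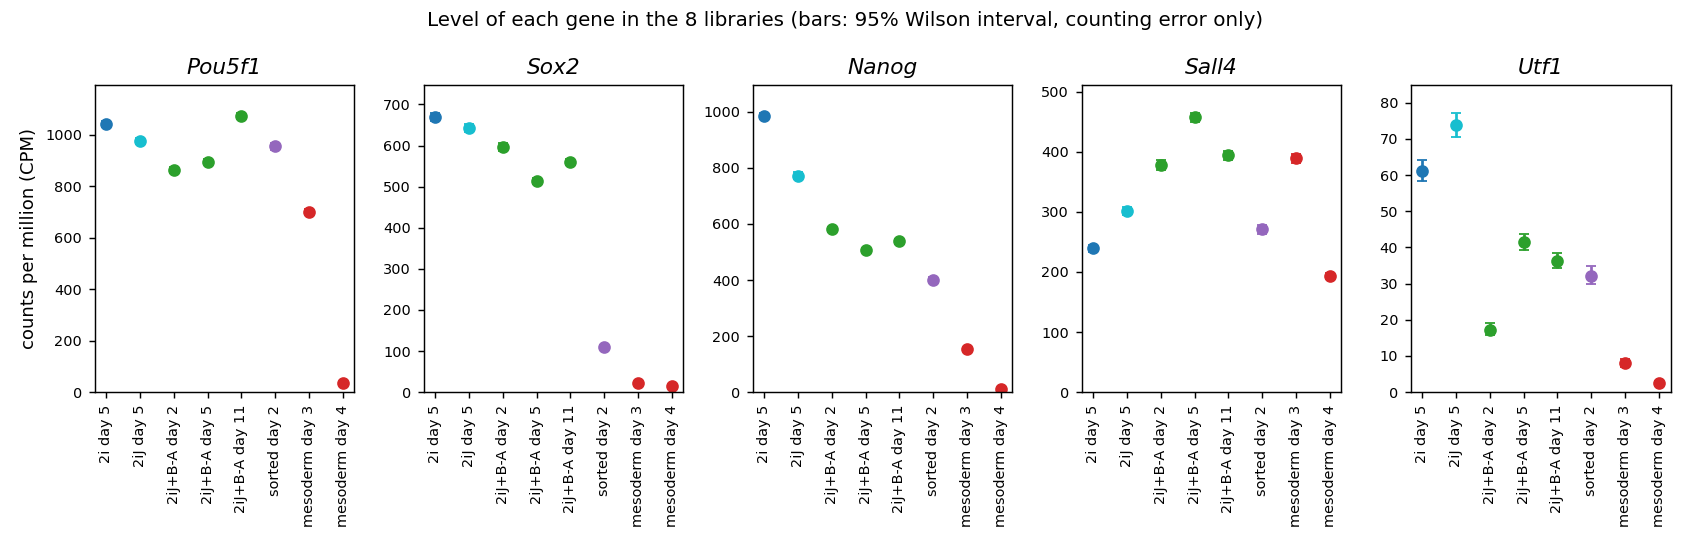
Level of each gene in CPM (vertical axes, each from 0) in the 8 libraries (horizontal axes), coloured by group, with 95% Wilson intervals that cover counting error only. Sox2 is 110.4 CPM in the sorted library against 514.1 to 596.6 CPM in 2iJ+B-A, while Pou5f1 is 35.37 CPM in day 4 mesoderm progenitors and at least 701.3 CPM in every other library.

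Mesoderm progenitors were compared with 2iJ+B-A (2 against 3 libraries) to ask which of the factors differed outside pluripotency. Sox2 fell 31.2-fold, with a log2 fold change of -4.96 (SE 0.26, adjusted p = 0.000842), and Utf1 fell 5.95-fold, with a log2 fold change of -2.57 (SE 0.59, adjusted p = 0.0239). The groups did not overlap for either gene, as for 31.0% of genes tested in this direction and 26.2% in the other. Pou5f1 and Nanog did not pass the threshold of 0.05. Pou5f1 had a log2 fold change of -1.36 (SE 1.01, adjusted p = 0.358) and Nanog of -2.74 (SE 1.01, adjusted p = 0.0909), with both mesoderm progenitor libraries below all 3 of 2iJ+B-A. Sall4 was -0.48 (SE 0.29, adjusted p = 0.253) and its groups overlapped. The call of Utf1 was lost when day 5 or day 11 of 2iJ+B-A was left out (adjusted p = 0.0721 and 0.0589), over a range of 1.87e-05 to 0.0721 for all alternatives. Thus 2 of the 5 genes were lower by this test, where 15.5% of the 16961 genes tested were lower and 11.5% higher.

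The mesoderm progenitor libraries differed from each other most in Pou5f1 and Nanog. On day 4 Pou5f1 was 19.8-fold lower than on day 3 (counting interval 18.7 to 21.1) and Nanog was 15.7-fold lower (14.0 to 17.7). Utf1 was 3.09-fold lower (2.39 to 4.02), Sall4 2.01-fold lower (1.95 to 2.08) and Sox2 1.55-fold lower (1.37 to 1.76). Day 3 cells therefore still held Pou5f1 at 701.3 CPM when Sox2 was already at 21.62 CPM. With 1 library a day there is no replicate check, and 4 of the 5 genes passed a fall of 2-fold, although Sall4 did not with TMM-scaled library sizes (ratio 0.506 against 0.497 unscaled). A fall of 2-fold was seen in 13.2% of 15548 genes, and 10.8% were higher by as much. Without the day 3 library, the comparison with 2iJ+B-A gave log2 fold changes of -4.67 for Pou5f1, -5.73 for Nanog and -1.01 for Sall4. The mesoderm arm was then 1 library, assumed to vary like the other groups. Adjusted p-values were 0.00139, 0.00136 and 0.0146, against ranges over all alternatives of 0.00139 to 0.504, 0.00136 to 0.175 and 0.0146 to 0.925. Without the day 4 library, which also left 1, Nanog was at -1.79 (adjusted p = 0.00565) and Pou5f1 at -0.39. The mesoderm progenitor markers differed between these libraries too, from 547.3 to 6.30 CPM for T and from 67.79 to 305.4 CPM for Kdr on days 3 and 4, and the part of cell type composition was not tested. In bulk RNA, fewer cells with a transcript and less transcript per cell cannot be told apart.

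Cultures with BMP4 and the ALK5 inhibitor were compared with those without in the 5 unsorted R1 libraries, with 2i and 2iJ as a joint reference. Since the 2i culture lacked the JAK inhibitor, this contrast also contains part of the difference between 2iJ and 2i. Against 2iJ alone in these libraries edgeR called 0 genes, with 1761 at an unadjusted p under 0.05, and Nanog was at -0.58 (adjusted p = 0.357, over a range of 0.00045 to 0.957 for all alternatives). Against the joint reference, Nanog fell 1.71-fold in 2iJ+B-A, with a log2 fold change of -0.78 (SE 0.15, adjusted p = 0.0391). Pou5f1 was at -0.17 (SE 0.14, adjusted p = 0.500) with overlapping groups. Sox2 was at -0.32 (SE 0.13, adjusted p = 0.192) and Utf1 at -1.18 (SE 0.32, adjusted p = 0.0821), and all 3 libraries of 2iJ+B-A lay below both references for each. Sall4 was at 0.52 (SE 0.14, adjusted p = 0.0836), with all 3 libraries above both references. Groups separated in this way for 17.3% of genes tested downward and for 26.8% upward. By edgeR, Nanog alone passed the threshold of 0.05, among 16235 genes tested of which 2.64% were lower and 2.48% higher. DESeq2 called Nanog, Sall4 (adjusted p = 0.0214) and Utf1 (adjusted p = 0.00986), as did edgeR with no filter on low counts (adjusted p = 0.0448 for Sall4 and 0.0134 for Utf1).

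The call of Nanog depended on the reference. Without the 2i library it was at -0.58 (adjusted p = 0.385), without 2iJ at -0.96 (adjusted p = 0.145), and without day 5 or day 11 of 2iJ+B-A at -0.71 and -0.77 (adjusted p = 0.141 and 0.0596). The adjusted p ranged from 0.00045 to 0.957 over all alternatives. Without the day 2 library, Sall4 was at 0.57 (adjusted p = 0.0402) and Utf1 at -0.88 (adjusted p = 0.0126), both past the threshold, over ranges of 0.0214 to 0.893 and 0.00986 to 0.728. Day 5 was the only day on which both cultures were measured. There 2iJ+B-A against 2iJ gave a ratio of 0.655 for Nanog (counting interval 0.641 to 0.669), 0.562 for Utf1 (0.523 to 0.603) and 0.799 for Sox2 (0.782 to 0.817). The ratio was 0.917 for Pou5f1 (0.902 to 0.933) and 1.52 for Sall4 (1.48 to 1.56). Of the 8 TE markers, 5 rose in the same edgeR fit (Cdx2, Gata3, Krt7, Krt8 and Krt18), while Elf5, Tfap2c and Hand1 did not pass. In that fit, against the joint reference, 2.48% of the 16235 genes tested were higher and 2.64% lower. The 5 calls depended on the reference too, and were not kept against 2iJ alone. The sum over the 8 genes, most of it Krt8 and Krt18 in 2iJ+B-A, was 73.68 and 116.7 CPM in 2i and 2iJ and 563.7, 1394 and 648.7 CPM in 2iJ+B-A on days 2, 5 and 11. All 8 were above 3 counts in 2iJ+B-A. In mesoderm progenitors the sum was 631.3 and 858.9 CPM on days 3 and 4, with Krt8 at 376.1 CPM on day 3 and Hand1 at 540.0 CPM on day 4. The sum is thus not particular to TE in these libraries. The part of any TE-like cells in the values of the 5 genes was not tested.

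The JAK inhibitor alone was represented by 1 library of 2iJ against 1 of 2i, both on day 5. Nanog was 1.27-fold lower in 2iJ (counting interval 1.25 to 1.30). Sall4 was 1.26-fold higher (1.22 to 1.30) and Utf1 1.21-fold higher (1.13 to 1.29). Pou5f1 had a ratio of 0.937 (0.921 to 0.953) and Sox2 of 0.961 (0.941 to 0.981). Of the 5 genes, 0 passed a change of 2-fold, while 4.81% of 15871 genes were higher and 2.91% lower by that much. These intervals cover counting error only and say nothing of variation between cultures.

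Within 2iJ+B-A, change over days 2, 5 and 11 was tested as a slope on log2 of the day. Utf1 had the steepest slope, at 0.44 log2 units per doubling of days (SE 0.36, adjusted p = 0.875), and went from 17.28 CPM on day 2 to 41.46 and 36.29 CPM. Its day 5 level was 2.40-fold that of day 2 (counting interval 2.15 to 2.68). The slopes of Pou5f1, Sox2, Nanog and Sall4 were 0.12, -0.05, -0.06 and 0.02 (SE 0.67, 0.13, 0.62 and 0.20, all adjusted p-values at least 0.969). None of the 5 passed, and 0.0% of the 16961 genes tested were called in either direction by edgeR, while 1004 had an unadjusted p under 0.05 and DESeq2 called 115. For all 5 genes the sign of the slope turned when 1 day was left out. Leaving out day 2 gave 0.14 for Sox2, 0.10 for Nanog, -0.16 for Sall4 and -0.14 for Utf1, and leaving out day 11 gave -0.0216 for Pou5f1.

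In the sorted Cdx2-GFP-positive cells, Sox2 was low while Pou5f1 was not. Against 2iJ+B-A (1 against 3 libraries) the tests assume that the single sorted library varies like the other groups. Sox2 passed with a 4.88-fold lower level, with a log2 fold change of -2.29 (SE 0.30, adjusted p = 0.0194). Pou5f1 was at 0.07 (SE 1.22, 95% interval -2.86 to 3.00, adjusted p = 0.981), Nanog at -0.39 (SE 1.16, adjusted p = 0.862), Sall4 at -0.55 (SE 0.37, adjusted p = 0.385) and Utf1 at 0.08 (SE 0.67, adjusted p = 0.954). The wide intervals of Pou5f1 and Nanog come with a spread estimated jointly with the mesoderm progenitors. So 1 of the 5 passed, where 2.08% of all tested genes were lower and 3.34% higher. Leaving out any 1 of the 2iJ+B-A libraries ended the call of Sox2 without changing its size, at -2.36 to -2.22 with adjusted p-values of 0.0655 to 0.0847, and left between 37 and 117 genes called of 919. Over all alternatives the adjusted p was at most 0.0847, and each gave a log2 fold change between -2.36 and -2.22.

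The closest match in time for the sorted cells was the day 2 library of 2iJ+B-A. Sox2 was 5.40-fold lower in sorted cells (counting interval 5.16 to 5.65), Nanog 1.45-fold lower (1.41 to 1.49) and Sall4 1.40-fold lower (1.35 to 1.44). Pou5f1 was 1.11-fold higher (1.08 to 1.13) and Utf1 1.86-fold higher (1.65 to 2.11). Only Sox2 passed 2-fold, which 16.6% of 16529 genes did downward and 20.5% upward. TE markers summed to 3958 CPM in the sorted cells against 563.7 CPM in that day 2 library, and all 8 were above 3 counts. Most of the sorted sum was Krt8 (1731 CPM) and Krt18 (1595 CPM). Cdx2, by whose reporter the cells were sorted, was 234.5 against 15.00 CPM. Hand1 was not higher, at 36.65 against 37.54 CPM, and Elf5 was 0.909 against 0.530 CPM. Markers of fibroblasts, 5 genes, summed to 108.7 against 40.72 CPM, with Col1a1 at 42.15 against 2.08 CPM and Acta2 at 19.79 against 32.32 CPM. The unsorted day 5 library had a higher fibroblast sum, 211.9 CPM, of which Acta2 was 199.7 CPM. The part of either marker set in the result was not tested.

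**Figure D2:**
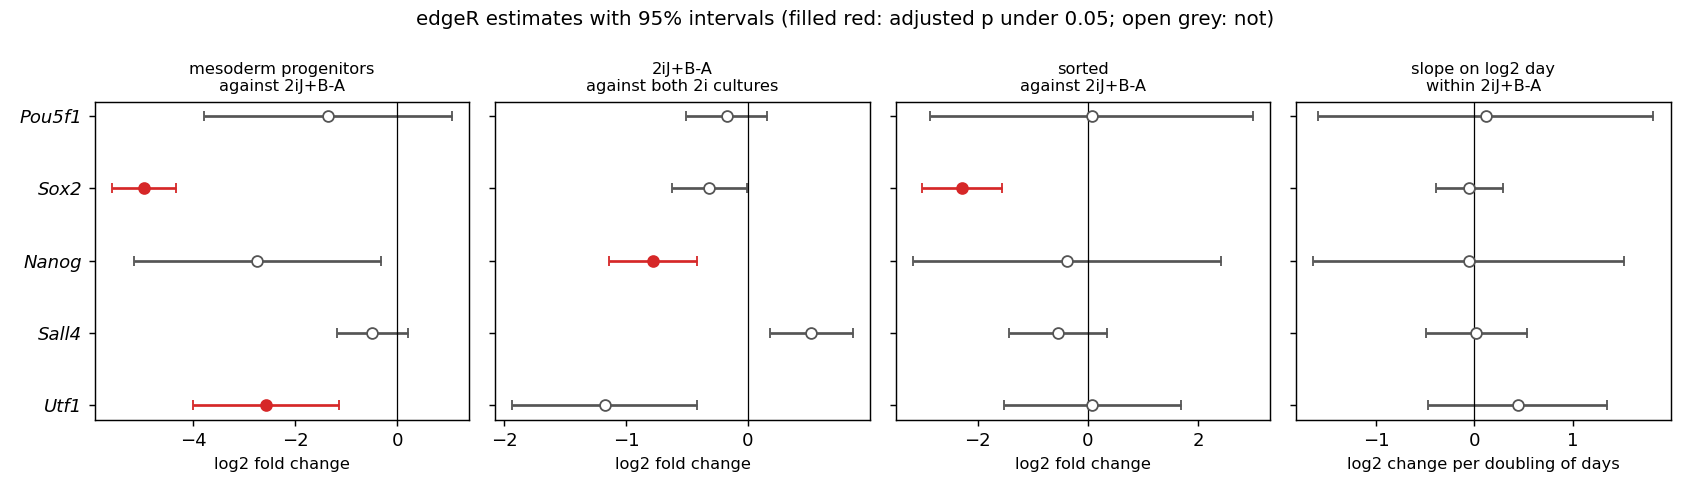
edgeR estimates (points) with 95% intervals (bars) for each gene in the 4 tested comparisons, as log2 fold changes and, at the right, as a slope per doubling of days. Filled red points passed an adjusted p of 0.05: Sox2 and Utf1 in mesoderm progenitors (-4.96 and -2.57), Nanog in 2iJ+B-A (-0.78) and Sox2 in sorted cells (-2.29).

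The balance among the factors within each library does not depend on scaling between libraries. It does depend on the exon length used, here all annotated exons of a gene joined. For Pou5f1 this was 2256 bases, while its longest coding transcript had 1347 bases. The shorter length would lower each ratio to Pou5f1 by the same factor in every library. Per kb of exon, the level of Sox2 relative to that of Pou5f1 was between 0.478 and 0.633 in the 5 unsorted mESC libraries. It was 0.106 in sorted cells, 0.0283 in day 3 mesoderm progenitors and 0.361 on day 4. The ratio was thus lowest on day 3, where Pou5f1 was still high. Nanog relative to Pou5f1 was 0.950 in 2i, 0.796 in 2iJ and 0.676, 0.569 and 0.503 in 2iJ+B-A on days 2, 5 and 11. It was 0.422 in sorted cells, and 0.219 and 0.277 in mesoderm progenitors. The Sox2 to Nanog ratio was between 0.927 and 0.951 in all 3 libraries of 2iJ+B-A, against 0.621 in 2i, 0.760 in 2iJ and 0.251 in sorted cells, and 0.129 and 1.31 in mesoderm progenitors on days 3 and 4. Sall4 relative to Pou5f1 was between 0.0935 and 0.226 except on day 4 of the mesoderm progenitors, where it was 2.22. Utf1 relative to Pou5f1 was between 0.0209 and 0.139 over all 8 libraries.

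**Figure D3:**
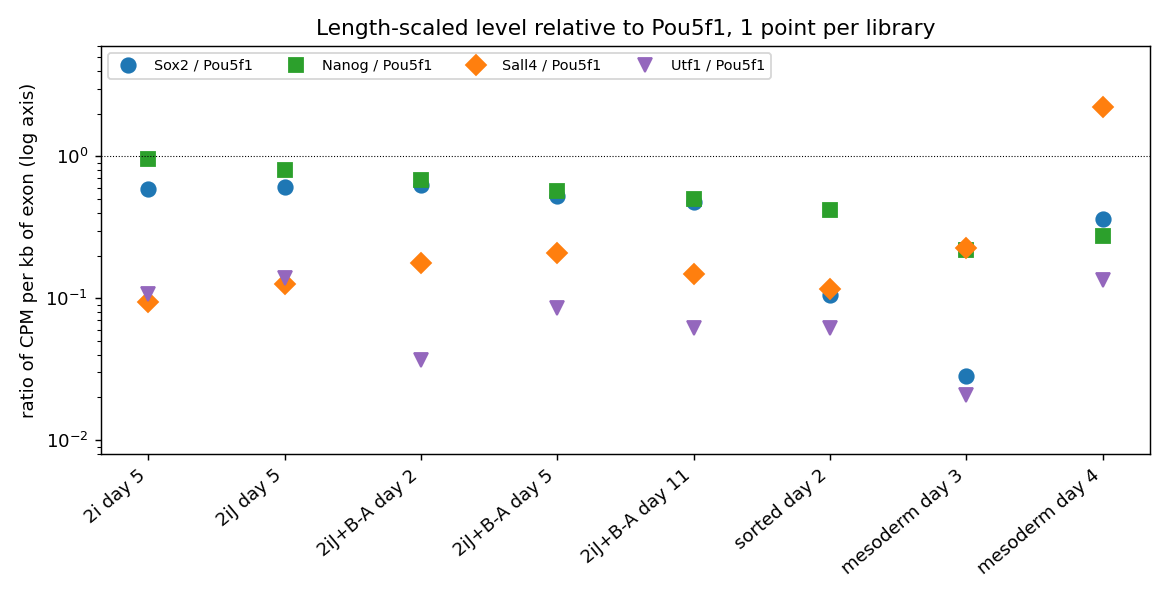
Level of Sox2, Nanog, Sall4 and Utf1 per kb of exon divided by that of Pou5f1 (vertical log axis) in each of the 8 libraries, with 1 point per library and a dotted line at 1. Sox2 drops from between 0.478 and 0.633 in unsorted mESCs to 0.106 in sorted cells and 0.0283 in day 3 mesoderm progenitors, and Sall4 exceeds Pou5f1 in day 4 mesoderm progenitors alone.

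Genes known as targets of Oct4, Sox2 and Nanog were followed as a list of 9, all of which were tested. In mesoderm progenitors 6 of 9 were lower and 0 higher than in 2iJ+B-A, where 15.5% of all genes tested were lower and 11.5% higher, with a median log2 fold change of -3.91, against -0.03 over all genes tested. The falls were steepest for Spp1, which encodes osteopontin, at -6.35 (SE 0.36, adjusted p = 0.000934), and Zfp42, the naïve marker Rex1, at -6.05 (SE 0.38, adjusted p = 0.00104). In 2iJ+B-A against both 2i cultures 3 of 9 were lower and 0 higher by edgeR (2.64% and 2.48% of all genes), and DESeq2 called 6, with a median of -0.75 against 0.01. The 3 were Lefty1, a secreted inhibitor of Nodal, Tdgf1, the Nodal coreceptor Cripto, and Dppa4, a chromatin-bound pluripotency protein. Lefty1 was 141.2 and 188.9 CPM in 2i and 2iJ and 8.36, 3.31 and 0.195 CPM in 2iJ+B-A on days 2, 5 and 11 (log2 fold change -5.48, SE 0.94, adjusted p = 0.0278). Tdgf1 was at -1.70 (SE 0.24, adjusted p = 0.0172) and Dppa4 at -0.85 (SE 0.17, adjusted p = 0.0414). The part of the Activin/Nodal block by the ALK5 inhibitor in the falls of Lefty1 and Tdgf1 was not tested. In sorted cells 0 of 9 passed by edgeR, with a median of -1.27 against -0.08, while 4 had an unadjusted p under 0.05 and DESeq2 called 3.

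Partners of Oct4, Nanog and Sall4 were a list of 9, and all were tested. In mesoderm progenitors 2 were higher and 4 lower (11.5% and 15.5% of all genes), with a median of -0.17. The partners with the largest rises were Arid3b, an ARID-domain DNA-binding protein, at 1.59 (SE 0.24, adjusted p = 0.00717), and Sall1, a relative of Sall4, at 0.68 (SE 0.15, adjusted p = 0.0222). The largest falls were those of Nr0b1, the orphan receptor Dax1, at -6.60 (SE 0.64, adjusted p = 0.00235), and Rif1, a telomere and replication-timing protein, at -1.46 (SE 0.28, adjusted p = 0.0136). In 2iJ+B-A, 1 of 9 was lower (2.64% of all genes), the zinc-finger gene Zmym2 at -0.57 (SE 0.12, adjusted p = 0.0483), and the median was -0.26. In the single sorted library 3 of 9 passed as lower by edgeR (2.08% of all genes) and DESeq2 called 5, with a median of -0.95. The 3 were the zinc-finger gene Zfp281 at -1.20 (SE 0.20, adjusted p = 0.0319), the BTB-domain gene Nacc1 at -1.26 (SE 0.20, adjusted p = 0.0297) and Sall1 at -2.11 (SE 0.23, adjusted p = 0.0114).

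The NuRD complex, through which Sall4 represses genes, was a list of 12. Its subunits had medians of 0.07, -0.06 and -0.10 in mesoderm progenitors, 2iJ+B-A and sorted cells, with members in both directions. In mesoderm progenitors 3 of 12 were higher and 1 lower (11.5% and 15.5% of all genes). Rbbp7, a histone-binding subunit, rose by 2.38 (SE 0.23, adjusted p = 0.00221), Mta1 by 0.75 (SE 0.13, adjusted p = 0.0117) and Chd4, the remodelling ATPase, by 0.56 (SE 0.14, adjusted p = 0.0318), while Mta3 fell by 0.92 (SE 0.16, adjusted p = 0.00976). In 2iJ+B-A the methyl-CpG-binding subunit Mbd2 passed by edgeR, at 1.08 (SE 0.19, adjusted p = 0.0303), where 2.48% of all genes were higher, and DESeq2 called 2 of the 12. In the single sorted library (3.34% of all genes higher and 2.08% lower) the alternative subunits Mta3 and Mta1 passed in opposite directions, at 1.58 (SE 0.18, adjusted p = 0.0130) and -0.94 (SE 0.18, adjusted p = 0.0431).

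Other pluripotency cofactors were a list of 10. In mesoderm progenitors 2 were higher and 5 lower (11.5% and 15.5% of all genes), with a median of -2.48. The 2 that rose were the let-7 inhibitors Lin28b, at 2.85 (SE 0.25, adjusted p = 0.00187), and Lin28a, at 0.60 (SE 0.16, adjusted p = 0.0396). The steepest falls were those of Tcl1, an activator of Akt, from between 20.01 and 34.67 CPM in 2iJ+B-A to 0.0954 and 0.162 CPM (adjusted p = 0.00104), and of the forkhead gene Foxd3, from between 23.72 and 44.17 CPM to 0.159 and 0.355 CPM (adjusted p = 0.00144). In 2iJ+B-A 2 of 10 were lower by edgeR (2.64% of all genes) and DESeq2 called 5, with a median of -0.46. The 2 were Dppa2, the binding partner of Dppa4, at -1.71 (SE 0.20, adjusted p = 0.0109), and Dppa5a, an RNA-binding protein of mESCs, at -0.78 (SE 0.16, adjusted p = 0.0391). In sorted cells Lin28a, at -1.37 (SE 0.23, adjusted p = 0.0316), and Tcl1, at -3.47 (SE 0.51, adjusted p = 0.0251), passed by edgeR (2.08% of all genes lower) and DESeq2 called 4, and the median was -1.22.

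**Figure D4:**
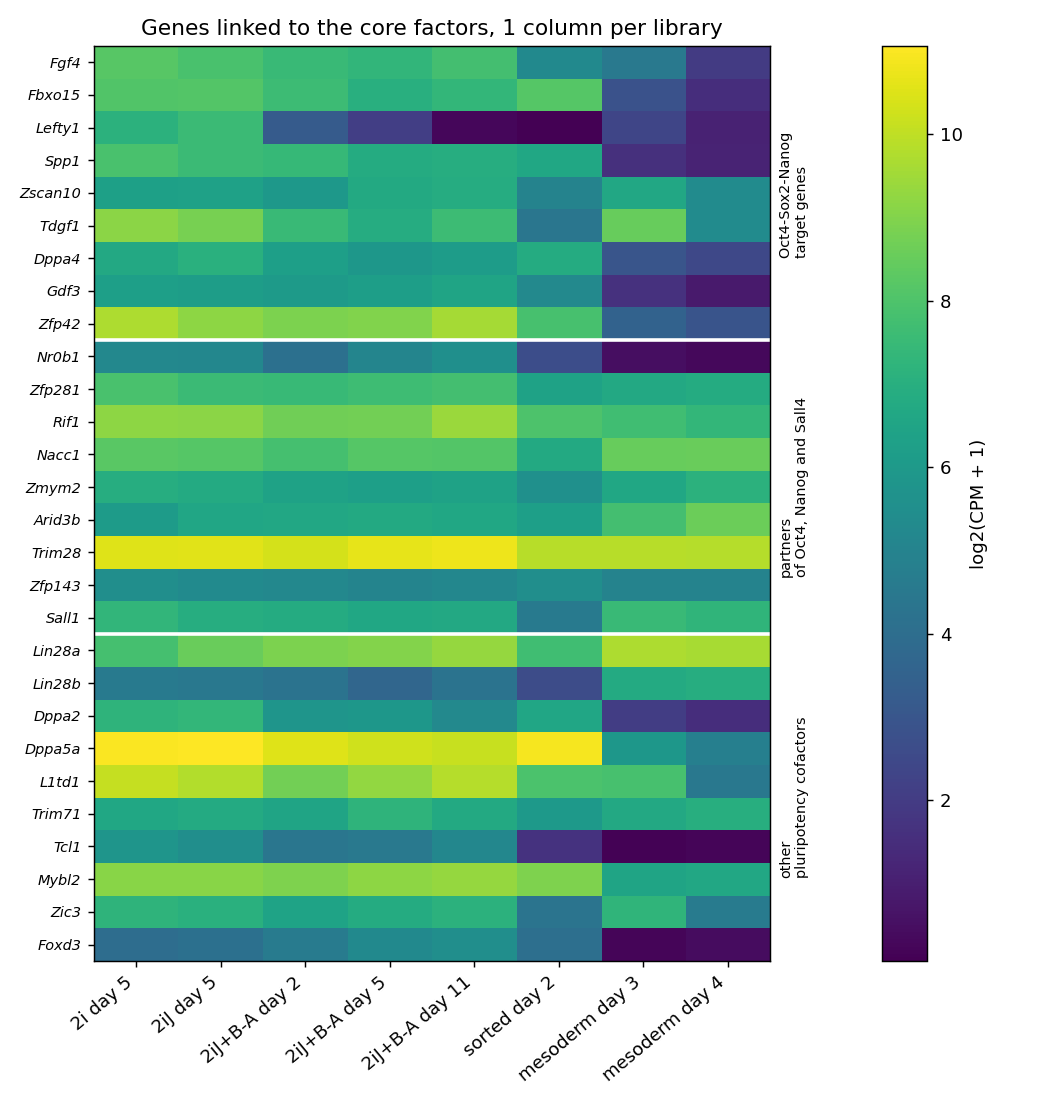
log2(CPM + 1), as colour, of the 28 genes listed as targets, partners and other cofactors (vertical axis) in the 8 libraries (horizontal axis), with 1 column per library. Lefty1 is bright in 2i and 2iJ (141.2 and 188.9 CPM) and dark in 2iJ+B-A (at most 8.36 CPM), and Spp1, Zfp42, Tcl1 and Foxd3 are dark in both mesoderm progenitor libraries.

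Relatives of Sox2, Oct4 and Sall4 were a list of 12, of which 9 were tested and 3 (Sox1, Sox4 and Pou3f1) were not analysed here. In mesoderm progenitors 3 were higher and 1 lower (11.5% and 15.5% of all genes), with a median of 0.68. Sox11, a SoxC factor of progenitor cells, rose by 3.51 (SE 0.32, adjusted p = 0.00203), Sall2 by 2.31 (SE 0.28, adjusted p = 0.00407) and Sall1, also on the list of partners, by 0.68, while Sox15 fell by 5.15 (SE 0.43, adjusted p = 0.00164). In the single sorted library 1 of 9 was higher and 3 lower by edgeR (3.34% and 2.08% of all genes), and DESeq2 called 6. Sox15, the relative that was higher, reached 54.21 CPM, against 9.29, 7.15 and 6.38 CPM in 2iJ+B-A on days 2, 5 and 11 (log2 fold change 2.88, SE 0.36, adjusted p = 0.0166). At the same time Sox11 fell by 3.63 (SE 0.55, adjusted p = 0.0272), Sall2 by 2.23 (SE 0.43, adjusted p = 0.0415) and Sall1 by 2.11 in those cells, and the median of the list was -2.23. In 2iJ+B-A, 1 of 9 was lower by edgeR (2.64% of all genes lower and 2.48% higher), the POU gene Pou2f3 at -1.74 (SE 0.34, adjusted p = 0.0362). DESeq2 called 4, and the median was -0.16. None of the genes of the 5 lists passed in the slope over days by edgeR, while 1 target, 1 partner and 1 relative had an unadjusted p under 0.05 and DESeq2 called 1 target and 1 relative.

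The genes whose log2 CPM followed each factor most closely over the 8 libraries were listed by Pearson correlation among 9456 genes with a mean of at least 10 CPM. The libraries share groups, so the correlations mostly restate differences between groups and carry no p. For Pou5f1 they were Ccnb1ip1 (r = 0.988), Ggct, Cdh1, Plekhf2 and Bcat1. For Nanog they were Jakmip1 (r = 0.995), Sgk1, Timm17a, Bcat1 and Pqlc3, so that Bcat1, a branched-chain aminotransferase, was on both lists. For Sox2 they were Clgn (r = 0.997), Stat4, Myh13, Dhx32 and Mcf2. For Utf1 they were Nufip2 (r = 0.995), Pelp1, Ccbl2, Gm14139 and 9630033F20Rik, and for Sall4 Mrps28 (r = 0.976), Agtrap, Tagln, Slc5a5 and Wdr41. Among the 5 factors themselves, Pou5f1 and Nanog were the most alike (r = 0.958), followed by Nanog and Utf1 (r = 0.924). Sall4 was the least like the others, with r of 0.396 to Sox2 and 0.317 to Utf1.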

How the data were processed

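Strand-specific poly-A RNA-seq libraries (8) were sequenced as pairs. Per the labels and the study's methods, the authors used bcl2fastq 2.17, trimmed with cutadapt and aligned to NCBIM37 with STAR 2.4.2a. The deposited files hold raw counts of uniquely aligned read pairs per gene from STAR, unstranded and for each strand, with no normalization or adjustment between days, although the study adjusted its own values for the day of the experiment. The annotation release of the counting is not given in the sources used here. All labels carry 1 batch mark. That mark does not tell the study's experiment days apart, so a difference between those days cannot be separated from the groups here.

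Counts of the reverse strand were used, since this is the strand the library chemistry reads (5.03% to 6.47% of strand-assigned counts lay on the other). GENCODE vM1 named 37205 of the 37620 genes. CPM are shares of the total gene count, with 95% Wilson intervals, and 3 counts (0.0954 to 0.151 CPM) were taken as the floor. PCR copies are not independent, so intervals cover counting error only. edgeR 4.0.16 (R 4.3.3) quasi-likelihood tests used TMM and kept genes that reached 10 counts in 2 or more libraries, with Benjamini-Hochberg adjustment over all genes tested and a threshold of 0.05. Mesoderm progenitors, sorted cells and the slope on log2 day were tested in all 8 libraries with a coefficient for each of 5 groups, which leaves 3 residual degrees of freedom (2 with the slope). 2iJ+B-A was tested against 2i and 2iJ in the 5 unsorted R1 libraries. SE is the log2 fold change over the root of F. p-values measure the spread between these libraries, which includes change over days. Pairs of single libraries were compared by CPM ratio, with exact binomial counting intervals and no test. Alternatives were DESeq2 1.42.0, RLE scaling, no filter, unstranded counts, other references and leaving out libraries. The tests were also run on simulated counts with less spread between libraries than these data have, so that run does not give their error rates here. Genomic copies were searched with minimap2 2.31.

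The 5 genes and the lists of related genes were chosen with earlier results of these data known. Of a list, genes past the threshold were named, or the 2 largest rises and 2 largest falls where over 4 passed, and the 5 genes most alike to each factor. Marker genes of other cell types were named after their values were seen.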

Additional observations from a re-analysis of the deposited data

How the results depend on the processing

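Of the alternative values computed, 220 kept their direction and side of the threshold or moved little. A further 24 moved, 10 newly passed the threshold, 13 no longer passed and 7 changed sign. No paired analysis was run, because beyond the day nothing in the labels links a library of a group to a library of another. For the sorted cells, Pou5f1 was at -0.0104 with unstranded counts, and leaving out 1 library moved the number of genes called from 919 to between 37 and 2052 (1987 and 2052 without mesoderm progenitors of day 3 or day 4, and 91, 37 and 117 without 2iJ+B-A of day 2, 5 or 11), Utf1 to between -0.21 and 0.30, and Sox2 to between -2.36 and -2.22. The number was 2665 with DESeq2, 1390 with no filter, 2033 without both mesoderm progenitor libraries and 27 with a slope on day, where Sox2 was at -2.35 (adjusted p = 0.0794). For mesoderm progenitors, leaving out 1 library of either group gave between 2019 and 4538 genes (4584 with all, 4597 without the sorted library, 2019 and 2666 without 2iJ+B-A of day 5 or 11), with Pou5f1 between -4.67 and -0.39, Nanog between -5.73 and -1.79, Sall4 between -1.01 and -0.0292 and Utf1 between -3.53 and -1.94. Utf1 missed the threshold when day 5 or day 11 of 2iJ+B-A was left out (adjusted p = 0.0721 and 0.0589), over a range of 1.87e-05 to 0.0721.

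For 2iJ+B-A against both 2i cultures (832 genes), the number was 2235 with DESeq2, 1757 with no filter, 150 in the fit of all 8 libraries, 0 against 2iJ alone in either fit, and between 0 and 2632 when 1 library was left out (0 without 2i, 9 without 2iJ, 2632 and 86 without 2iJ+B-A of day 2 or 5). Against 2iJ alone, 1290 genes of all 8 libraries and 1761 of the 5 had an unadjusted p under 0.05 in edgeR, as did 1667 without 2i, and DESeq2 was not run for that reference. Nanog was at -0.77 (adjusted p = 0.676) in the fit of all 8 libraries and, against 2iJ alone, at -0.58 in both fits (adjusted p = 0.957 with all libraries and 0.357 in 5), and between -0.96 and -0.58 with 1 library left out. Sall4 was at 0.52 with DESeq2, 0.53 with no filter and between 0.38 and 0.68 with 1 library left out, and Utf1 at -1.18, -1.16 and between -1.39 and -0.88. The slope called 0 genes, 115 with DESeq2, 2 with no filter and between 0 and 469 with 1 library left out (379 and 469 without mesoderm progenitors of day 3 or 4). Leaving out 1 library put the slopes between -0.0216 and 0.26 for Pou5f1, -0.22 and 0.14 for Sox2, -0.21 and 0.10 for Nanog, -0.16 and 0.15 for Sall4 and -0.14 and 0.90 for Utf1. The cause of these shifts was not tested. Leaving out 2i, 2iJ or the sorted library was added after the data were seen. At these depths counting error is small beside the spread between libraries, and single-library groups limit what can be said.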

Other observations

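The primitive endoderm markers, 5 of 6 of which were measured, were at their lowest in the 2i culture, at a sum of 3.87 CPM, and 8.17 CPM in 2iJ. In 2iJ+B-A the sum was 11.05, 33.13 and 137.2 CPM on days 2, 5 and 11, beside Pou5f1 at 865.5, 895.8 and 1075 CPM and Nanog at 581.2, 506.2 and 537.5 CPM. Gata4, a GATA factor of this lineage, was 5.18, 15.55 and 72.82 CPM on those days, and Sox17 was 1.06, 5.12 and 24.12 CPM. In the sorted cells Gata4 was 0.757 CPM while Gata6, another GATA factor of the lineage, was 32.76 CPM. Mesoderm progenitors held a marker sum of 120.7 and 336.1 CPM on days 3 and 4. Gata4 was 96.62 and 225.8 CPM there, and Sox17 was 2.07 and 2.10 CPM. The sum is thus not particular to primitive endoderm in these libraries. There was 1 library a day, so these values have no replicate check, and Sox17 did not pass the slope test.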
